A study of Mus musculus with 4 samples.

Results

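The genes described here are 37 imprinted mouse genes at 19 loci, taken by symbol from a fixed list, among 55401 genes in the count table. All 37 had a row in the table. Imprinted genes are expressed mainly or only from the copy inherited from 1 parent. The choice of copy is set in the germ line, most often by DNA methylation of a control region, and is kept through early development by factors such as ZFP57 and TRIM28, which hold methylation at those regions. In mouse embryonic stem cells imprints are known to be fragile, and long culture with a MEK inhibitor is known to lower DNA methylation, at imprinted regions too. The table gives total reads per gene and no alleles, so none of the values below says which parental copy was read. By textbook knowledge, 20 of the 37 are expressed from the paternal copy and 9 from the maternal copy. A further 7 have a bias that depends on the tissue, and Gnas has transcripts of both kinds.

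Polyadenylated RNA was read from R1 mouse embryonic stem cells in 2 groups with 2 libraries each: cells labelled Usp28 KO (knockout) and cells labelled CTL with the genotype WT, called control here. Usp28 encodes a deubiquitinase. Both groups grew on 0.2% gelatin in N2B27 medium with 1 μM PD0325901 (a MEK inhibitor), 3 μM CHIR99021 (a GSK3 inhibitor) and 10 ng/ml LIF. The labels give neither the number of clones behind the Usp28 KO cells nor the number of cultures behind each pair of libraries. The p-values therefore cover library-to-library spread alone, and that spread may be technical.

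The libraries held 16595196 to 19533608 counts. Usp28 itself had 3392 and 3319 counts in the libraries labelled Usp28 KO, against 3690 and 3120 in control libraries (log2 fold change -0.11 ± 0.15, edgeR adjusted p = 0.857), so the gene count does not check the label. Values are in CPM, counts scaled to the same library total, with library totals adjusted by trimmed means (TMM). The 8 stem cell markers (Pou5f1, Sox2, Nanog, Zfp42, Esrrb, Klf4, Tfcp2l1 and Utf1) summed to 4164 and 4624 CPM in Usp28 KO libraries, against 4947 and 5008 CPM in control libraries. Groups overlapped for 6 of the 8. The other 2, Tfcp2l1 (means of 687 CPM in Usp28 KO and 996 CPM in control libraries) and Zfp42 (517 and 649 CPM), were lower in every Usp28 KO library. The 10 fibroblast markers summed to 5.94 and 9.60 CPM in Usp28 KO libraries, against 4.197 and 5.80 CPM in control libraries, with Postn, Lum and Twist2 at 0 counts throughout; Pdgfrb made up most of that sum, and Col1a1 and Col1a2 had at most 6 counts in any library. Libraries also differed in how expression ran with transcript GC content: each library's level against the others was rank-correlated with GC at 0.0151 and 0.456 in Usp28 KO replicates 1 and 2, and at 0.0579 and -0.461 in control replicates 1 and 2. GC-corrected log2 fold changes are given beside many of the results, and the part of GC content in any difference below was not tested otherwise.

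The members that stood farthest from zero relative to their error lay at 3 unlinked loci, and they did not go one way. Slc38a4, an amino acid transporter gene, was higher in the Usp28 KO libraries, and Plagl1 and Zdbf2, both zinc finger protein genes, were lower. All 3 are known as paternally expressed genes. DESeq2 called these 3 and no other of the 30 members it tested at an adjusted p under 0.05, where it called 0.969% of all genes (0.604% higher and 0.365% lower). The main test, edgeR's quasi-likelihood fit over 15341 genes, called none of the 32 members that passed its filter on low counts, and 0% of all genes. At an unadjusted p under 0.05 edgeR counted 9 of the 32 members (28.1%), 5 higher and 4 lower, against 11.2% of all tested genes (6.86% higher and 4.34% lower). Ascl2 and Phlda2, both low, passed the filter (0.545 CPM in at least 2 libraries) with both Usp28 KO libraries at that minimum. No control library reached it for Ascl2, which fixed its sign, and 1 control library did for Phlda2. Without Ascl2 and Phlda2 the counts were 4 higher and 4 lower of 30. In bulk RNA, fewer cells with a transcript and less transcript per cell cannot be told apart.

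**Figure D1:**
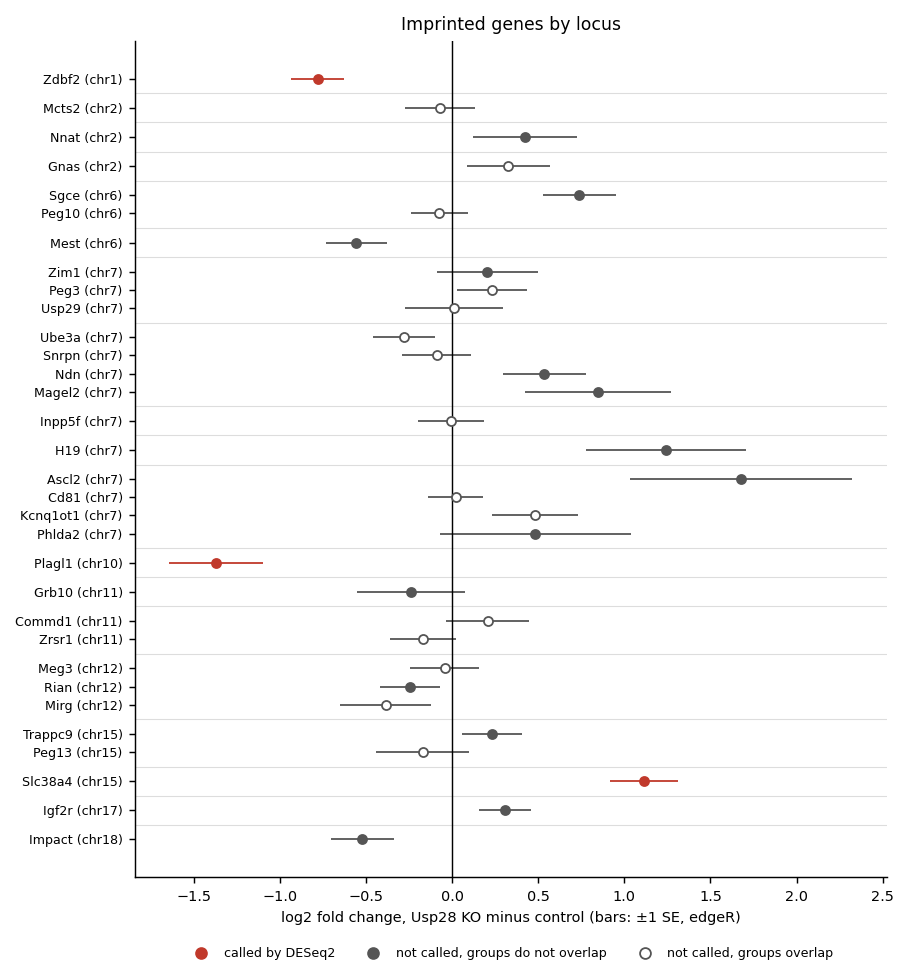
Log2 fold change of the 32 tested imprinted genes, Usp28 KO minus control, ordered by chromosome and locus; bars are ±1 SE from the edgeR fit and each row is 1 gene. Slc38a4, Plagl1 and Zdbf2 are in red, the 3 that DESeq2 called; filled points are genes whose groups did not overlap. Slc38a4 at 1.11 lies far to the right and Plagl1 at -1.37 far to the left, and 13 of the 32 genes lie within 1 SE of zero.

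Promoter sequences are shown for Plagl1, Zdbf2 and Mest, because their windows hold the core hexamer that mouse ZFP57 is known to bind when it is methylated, TGCCGC, and because all 3 genes were lower in every Usp28 KO library than in every control library; they were chosen after their values were seen. Members with the hexamer in a window did not share a direction: it was in 11 members, of which 4 were lower without overlap (the 3 shown and Grb10, a gene of low level), 2 were higher without overlap (Nnat and Zim1), 4 overlapped (Commd1, Mcts2, Meg3 and Snrpn) and Igf2 was not tested. RefSeq windows on GRCm38.p6 run from 250 bases before to 50 after a gene's start. Windows of 30 of the members were used, 47 in all, and none was used for Impact. The hexamer, on either strand (TGCCGC or GCGGCA), was in 12 of those 47 windows (25.5%), against 11.6% of the 32851 windows of all genes; overlapping matches count separately and no other motif was searched. Of the 12 windows with the hexamer, 2 are Mest windows that nearly coincide and hold the same matches. By gene, the hexamer was in 11 of the 30 members with windows, against 3527 of 27025 among all genes. The windows hold a median of 14 CpG dinucleotides in the members and 7 in all genes. Capitals mark the hexamer, and each sequence reads 5′ to 3′ along the gene's strand.
Zdbf2, upstream start, chr1:63200108-63200407, plus strand: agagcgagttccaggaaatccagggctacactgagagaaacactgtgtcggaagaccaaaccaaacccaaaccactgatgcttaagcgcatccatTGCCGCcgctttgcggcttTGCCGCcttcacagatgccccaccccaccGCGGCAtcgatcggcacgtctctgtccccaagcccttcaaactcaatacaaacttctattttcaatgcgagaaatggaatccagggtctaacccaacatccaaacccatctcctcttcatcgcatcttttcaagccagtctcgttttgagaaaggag
Plagl1, chr10:13090582-13090881, plus strand: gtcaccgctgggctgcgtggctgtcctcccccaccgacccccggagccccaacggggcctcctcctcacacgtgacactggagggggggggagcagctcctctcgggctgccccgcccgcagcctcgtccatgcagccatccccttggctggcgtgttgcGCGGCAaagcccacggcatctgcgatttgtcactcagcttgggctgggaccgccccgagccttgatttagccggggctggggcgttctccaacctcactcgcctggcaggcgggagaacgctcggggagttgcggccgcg
Mest, second start, chr6:30737800-30738099, plus strand: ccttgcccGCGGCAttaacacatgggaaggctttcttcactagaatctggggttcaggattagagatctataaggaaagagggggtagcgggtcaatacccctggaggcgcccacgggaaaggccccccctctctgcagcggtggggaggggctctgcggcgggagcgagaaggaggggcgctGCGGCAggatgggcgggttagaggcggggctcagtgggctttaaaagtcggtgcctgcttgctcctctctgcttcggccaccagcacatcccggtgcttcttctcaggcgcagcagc

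The Zdbf2 window holds 3 matches, the only member window with at least 3; of all windows 0.234% have as many. It lies upstream of the gene's span in the deposited table, at the start of the noncoding gene Platr12, which runs on the same strand and had 3.13 ± 0.195 CPM in Usp28 KO libraries and 2.52 ± 0.349 CPM in control libraries (SD, n = 2 each; log2 fold change 0.31 ± 0.34, edgeR adjusted p = 0.794). The other Zdbf2 start, at that span, has no match and 38 CpG dinucleotides. The 3 Slc38a4 windows, each with 5 CpG dinucleotides, have no match. A match is a run of letters and not a bound site.

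The imprinted genes of these cells spanned a wide range of levels. Per exonic length (CPM per kilobase, RPKM), the highest were the long noncoding RNA Meg3 at 73.4 ± 14.5 RPKM in Usp28 KO and 75.7 ± 12.3 RPKM in control libraries, and the tetraspanin gene Cd81 at 74.7 ± 7.24 RPKM in Usp28 KO and 73.7 ± 2.90 RPKM in control libraries (SD, n = 2 each). These did not differ from each other beyond their spread. By the mean of both groups, the next were Impact, Mest, Rian, Peg10, Mcts2, Snrpn, Peg3 and Igf2r, with Impact at 44.9 ± 8.22 RPKM in Usp28 KO and 64.5 ± 9.36 RPKM in control libraries and Igf2r at 16.9 ± 0.275 RPKM in Usp28 KO and 13.7 ± 0.129 RPKM in control libraries. Rian, Peg10 and Mcts2 lay within each other's spread in Usp28 KO libraries. In control libraries Rian, at 28.8 ± 1.72 RPKM, lay above Peg10, at 25.3 ± 0.983 RPKM. In Usp28 KO libraries Slc38a4 stood at 17.8 ± 4.50 RPKM, Zdbf2 at 8.33 ± 0.0990 RPKM and Plagl1 at 5.96 ± 2.48 RPKM. In control libraries the means ran the other way, with Slc38a4 at 8.20 ± 0.662 RPKM, Zdbf2 at 14.3 ± 0.832 RPKM and Plagl1 at 15.4 ± 3.52 RPKM, although Zdbf2 and Plagl1 did not differ there beyond their spread. In the whole list 7 members averaged under 1 CPM, and 5 of those did not pass the filter: Igf2, Cdkn1c, Dlk1, Airn and Tspan32.

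**Figure D2:**
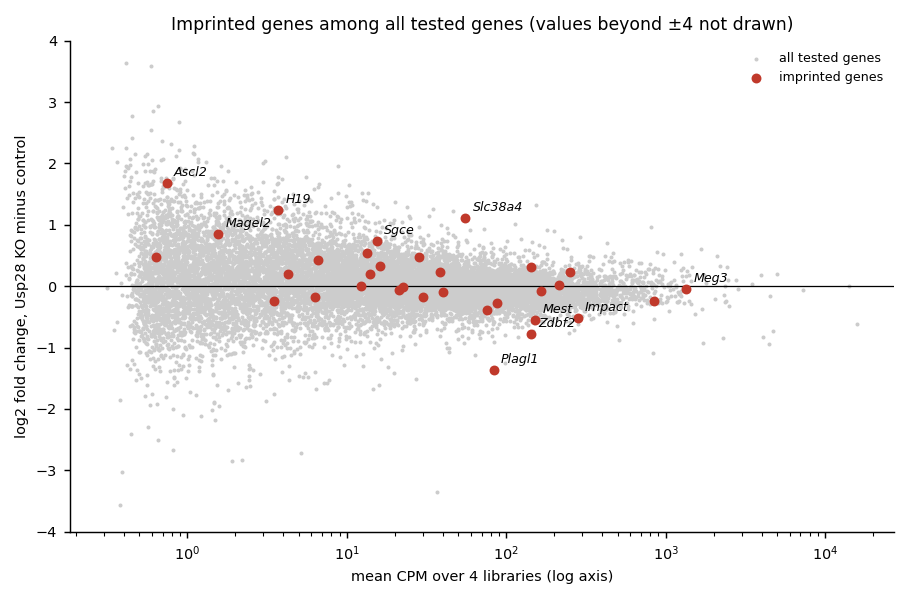
Mean CPM over the 4 libraries (x, log axis) and log2 fold change of Usp28 KO minus control (y) for the tested genes; imprinted genes are the larger points. Slc38a4, Plagl1 and Zdbf2 lie at the edge of the genes of like abundance, whereas Ascl2 and H19, with larger values than most, lie where low counts spread the points.

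Slc38a4 (ENSMUSG00000022464.14, mm10 chromosome 15, 96994820 to 97055956, minus strand) encodes a transporter of neutral and cationic amino acids that is known for its role in placenta and liver. In the early mouse embryo silencing of its maternal copy is known to depend on methylation of histone H3 at lysine 27. It had 89.2 and 62.1 CPM in Usp28 KO libraries, against 33.0 and 36.9 CPM in control libraries. Both Usp28 KO values lay above both control values. By DESeq2 it rose by a log2 fold change of 1.11 (adjusted p = 0.000871), and edgeR gave 1.11 ± 0.20 (adjusted p = 0.0611). With 1 library left out its edgeR log2 fold change ran from 0.83, without Usp28 KO replicate 1, to 1.35, without Usp28 KO replicate 2.

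Plagl1 (ENSMUSG00000019817.18, chromosome 10, 13060504 to 13131694, plus strand), also known as Zac1, encodes a zinc finger transcription factor that restrains the cell cycle in cultured cells. It had 32.9 and 60.3 CPM in Usp28 KO libraries, against 101.0 and 140.0 CPM in control libraries. The groups did not overlap, but the Usp28 KO libraries differed from each other by 0.87 on the log2 scale. By DESeq2 it fell by 1.38 on the log2 scale (adjusted p = 0.000399), and edgeR gave -1.37 ± 0.27 (adjusted p = 0.113). Its log2 fold change was -1.88 without Usp28 KO replicate 2 and -0.999 without Usp28 KO replicate 1.

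Zdbf2 (ENSMUSG00000027520.16, chromosome 1, 63273265 to 63314576, plus strand) encodes a zinc finger protein known in mice for an effect on growth after birth. It had 104.6 and 106.4 CPM in Usp28 KO libraries, against 174 and 189 CPM in control libraries. Replicates lay close together in both groups and the groups were well apart. By DESeq2 it fell by 0.79 on the log2 scale (adjusted p = 0.00355), and edgeR gave -0.78 ± 0.16 (adjusted p = 0.0899; -0.68 after GC correction). With a library left out its log2 fold change ran from -0.84, without control replicate 1, to -0.73, without control replicate 2.

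**Figure D3:**
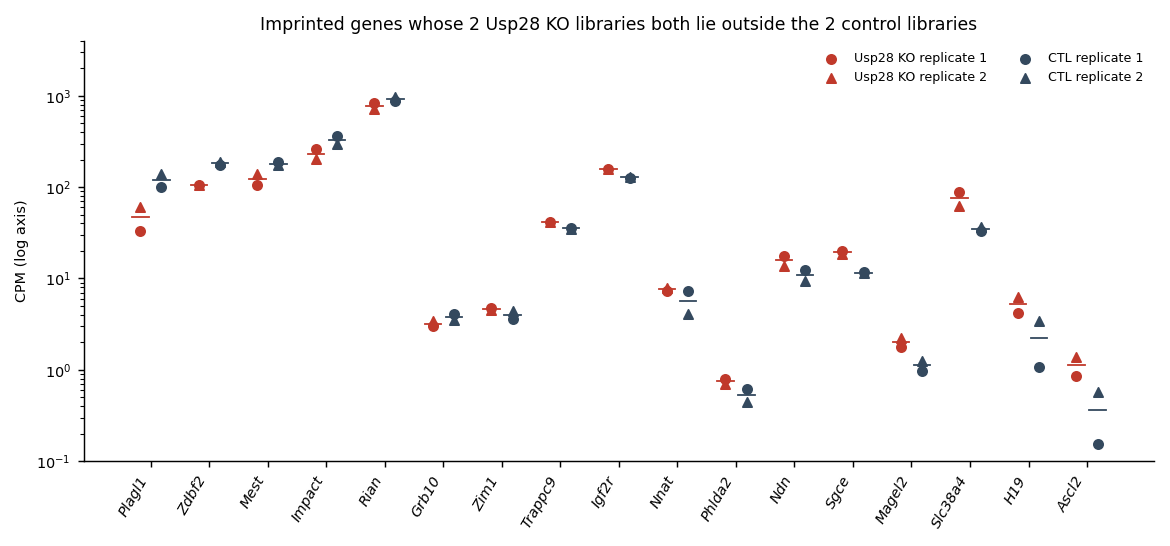
CPM (log axis) in each library for the 17 tested imprinted genes whose Usp28 KO values both lay above or both below the control values, ordered by fold change; points are libraries and short lines are group means. Plagl1, Zdbf2, Mest, Impact, Rian and Grb10 are lower in Usp28 KO libraries, and the other 11 are higher.

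Of the 32 tested members, 17 had groups that did not overlap (53.1%, against 41.8% of all tested genes), with 11 higher (21.4% of all genes were) and 6 lower (20.4% were). Ascl2 and Phlda2 are among the 11, and 9 were higher without them. A fold change beyond 1.5 either way was found in 7 members (21.9%), against 14.7% of all genes, and these were Plagl1, Zdbf2, Sgce, Slc38a4, Magel2, H19 and Ascl2, whose sign the filter fixed. The median log2 fold change of the tested members was 0.014 (-0.00029 without Ascl2 and Phlda2), against -0.0040 for all genes. Without Usp28 KO replicate 1 the median of the members was 0.14. Among the 17 tested paternally expressed members the median was -0.070, with 5 higher and 4 lower without overlap. Among the 8 tested maternally expressed members it was 0.26, with 5 higher and 1 lower. That 0.26 and the 5 include Ascl2 and Phlda2, so it was not compared with the paternal median. Of the other maternally expressed members, H19 (1.24), Igf2r (0.31) and Zim1 (0.20) were higher without overlap. Rian (-0.25) was lower without overlap, and Meg3 (-0.045) and Mirg (-0.39) overlapped. Leaving a library out raised the number of edgeR calls over all genes as well as among the members, so calls in such fits are not particular to the members. In such fits the group with 1 library is assumed to vary like the other.

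At the Sgce and Peg10 locus on chromosome 6 the paternally expressed neighbours gave unlike values. Their starts face away from each other and lie close together, and Sgce encodes epsilon-sarcoglycan while Peg10 is a retrotransposon-derived gene needed for the placenta. Sgce (4674350 to 4747207, minus strand) had 20.2 and 18.6 CPM in Usp28 KO libraries, against 11.6 and 11.6 CPM in control libraries, whereas Peg10 (4747306 to 4760517, plus strand) had 177 and 143 CPM in Usp28 KO libraries, against 173 and 164 CPM in control libraries. Sgce groups were apart (0.74 ± 0.21, edgeR adjusted p = 0.204, DESeq2 adjusted p = 0.187) and Peg10 groups overlapped (-0.076 ± 0.16). The log2 ratio of Sgce to Peg10 per exonic length, which does not depend on library scaling, was -3.80 and -3.62 in Usp28 KO libraries, against -4.57 and -4.49 in control libraries. With 2 libraries against 2 the smallest p of an exact two-sided permutation test is 0.333, so ratios of this kind were not tested. Such ratios overlapped between the groups for Zim1 to Peg3, Magel2 to Ndn, Ube3a to Snrpn, Rian to Meg3 and Mirg to Rian. They also overlapped for Zrsr1 to Commd1 and Kcnq1ot1 to Cd81. The ratios of Peg3 to Usp29 and Igf2r to Airn were higher in both Usp28 KO libraries, the latter with Airn at no more than 2 counts. Casd1, next to Sgce, had 10.9 ± 0.438 CPM in Usp28 KO libraries and 17.7 ± 1.88 CPM in control libraries (SD, n = 2 each; log2 fold change -0.70 ± 0.22, edgeR adjusted p = 0.251).

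Mest and Impact had lower values in every Usp28 KO library, and neither the reported edgeR fit nor DESeq2 called them. Mest (chromosome 6, 30723547 to 30748465, plus strand) encodes a hydrolase-like protein of mesoderm and fat tissue. It had 105 and 141 CPM in Usp28 KO libraries, against 189 and 173 CPM in control libraries (-0.56 ± 0.18, edgeR adjusted p = 0.257, DESeq2 adjusted p = 0.221). Its log2 fold change ranged from -0.79, without Usp28 KO replicate 2, to -0.36, without Usp28 KO replicate 1, and edgeR called it in the first of these fits (adjusted p = 0.0186). Exons of Copg2 on the other strand cover 23.1% of its exonic bases, so its count is uncertain. Impact, on chromosome 18, encodes an inhibitor of the amino acid sensor kinase GCN2. It had 260.2 and 201 CPM in Usp28 KO libraries, against 365 and 297 CPM in control libraries (-0.52 ± 0.18, edgeR adjusted p = 0.322, DESeq2 adjusted p = 0.270). Its log2 fold change ran from -0.72 to -0.35 with a library left out, and edgeR called it in none of these 4 fits.

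The distal chromosome 7 cluster was mostly near the detection limit. H19, the maternally expressed noncoding RNA beside Igf2, had 4.17 and 6.24 CPM in Usp28 KO libraries, against 1.07 and 3.41 CPM in control libraries. Its groups were just apart, and the control libraries differed from each other by 1.31 on the log2 scale. The edgeR log2 fold change was 1.24 ± 0.46 (adjusted p = 0.343; 1.09 after GC correction). Leaving out control replicate 1 gave 0.61, and leaving out control replicate 2 gave 2.26 (adjusted p = 0.00253). edgeR also called H19 when Usp28 KO replicate 1 was left out (1.503, adjusted p = 0.0436). Igf2, the fetal growth factor gene, had 1 and 0 counts in Usp28 KO libraries and 0 and 1 count in control libraries, too few for any comparison. H19 is also expressed by fibroblasts. The fibroblast marker sum, given above, was likewise higher in both Usp28 KO libraries, and its part in the H19 difference was not tested. Of the 10 markers 3 passed the filter: Pdgfrb (0.68 ± 0.33), Fbln2 (0.84 ± 0.55) and Thy1 (0.42 ± 0.59). Thy1 passed through its Usp28 KO libraries, with control replicate 1 below the minimum, and its groups overlapped.

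In the Kcnq1ot1 domain, the paternally expressed noncoding RNA Kcnq1ot1, which silences its neighbours in cis, had 39.5 and 26.1 CPM in Usp28 KO libraries, against 19.04 and 28.1 CPM in control libraries. The groups overlapped (0.48 ± 0.25, edgeR adjusted p = 0.508; 0.66 after GC correction). Its row is a single exon of 93092 bases inside Kcnq1 on the other strand, so per length it stood at 0.353 RPKM in Usp28 KO and 0.253 RPKM in control libraries. Ascl2, a maternally expressed factor gene of the trophoblast, had 16 and 26 counts in Usp28 KO libraries, against 3 and 9 in control libraries. It passed the filter through its Usp28 KO libraries only, so its log2 fold change of 1.68 ± 0.65 (edgeR adjusted p = 0.348; 1.39 after GC correction) had to be of that sign. Of the 7 trophoblast markers Tpbpa was at 0 in every library. Their sum, 124 and 153 CPM in Usp28 KO libraries against 129 and 161 CPM in control libraries, was nearly all Tfap2c, which stem cells also express. Phlda2, a growth-limiting placental gene, had 15 and 13 counts in Usp28 KO libraries, against 12 and 7 in control libraries. It passed the filter with both Usp28 KO libraries and 1 control library at the minimum. The cell cycle inhibitor gene Cdkn1c had 4 and 7 counts in Usp28 KO libraries, against 13 and 7 in control libraries, and Tspan32 had 3 and 8 counts in Usp28 KO libraries, against 3 and 3 in control libraries. Cd81, at the edge of the domain, was abundant and its groups overlapped, at 200.4 and 230 CPM in Usp28 KO libraries, against 218 and 206 CPM in control libraries (0.020 ± 0.16).

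At the Snrpn domain on central chromosome 7, the intronless MAGE family genes Ndn and Magel2 were higher in both Usp28 KO libraries. Ndn had 17.7 and 13.8 CPM in Usp28 KO libraries, against 12.4 and 9.27 CPM in control libraries (0.53 ± 0.24, edgeR adjusted p = 0.438). Magel2 had 1.76 and 2.24 CPM in Usp28 KO libraries, against 0.973 and 1.26 CPM in control libraries (0.85 ± 0.42, edgeR adjusted p = 0.488). After GC correction Ndn stood at 0.56 and Magel2 at 0.63. Snrpn, which encodes a splicing protein from the same paternal copy, overlapped between the groups at 44.9 and 32.3 CPM in Usp28 KO libraries, against 44.4 and 37.8 CPM in control libraries (-0.091 ± 0.20). Snurf, whose exons lie within those of Snrpn, was listed at 0 in all libraries, so reads of that overlap cannot be placed. Genes on the same strand, Gm38393 among them, share 27.3% of Snrpn exonic bases. Gm38393 had means of 30.9 CPM in Usp28 KO and 42.9 CPM in control libraries, and its groups overlapped (-0.47 ± 0.29). The Snrpn count and the ratio of Ndn to Snrpn are therefore uncertain. The log2 ratio of Ndn to Snrpn per length was -2.12 and -2.001 in Usp28 KO libraries, against -2.61 and -2.80 in control libraries. Ube3a, a ubiquitin ligase gene imprinted only in neurons, had 85.5 and 73.1 CPM in Usp28 KO libraries, against 83.4 and 109 CPM in control libraries. Its log2 fold change of -0.28 ± 0.18 (edgeR adjusted p = 0.614) was 0.0054 after GC correction; its transcripts, at 38.2% GC, are the poorest in GC of the members, and 27.3% of its exonic bases are shared with genes on the other strand, Snhg14 among them.

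The Dlk1 and Meg3 locus on chromosome 12 was active from its noncoding side. Meg3 had 1141 and 1513 CPM in Usp28 KO libraries, against 1212 and 1527 CPM in control libraries, and the replicates differed more than the groups (-0.045 ± 0.20). Rian, which hosts small nucleolar RNAs, had 842 and 712 CPM in Usp28 KO libraries, against 882 and 960 CPM in control libraries. Its groups were just apart (-0.25 ± 0.18, edgeR adjusted p = 0.655), and its log2 fold change was -0.061 after GC correction. Mirg, a host of microRNAs, had 47.6 and 82.8 CPM in Usp28 KO libraries, against 68.9 and 102 CPM in control libraries, and the groups overlapped (-0.39 ± 0.27, edgeR adjusted p = 0.646; -0.85 without Usp28 KO replicate 2, with an adjusted p of 0.0187, and -0.043 without Usp28 KO replicate 1). The log2 ratio of Mirg to Meg3 per length was -3.27 and -2.88 in Usp28 KO libraries, against -2.83 and -2.60 in control libraries. Those of Rian to Meg3 and of Mirg to Rian overlapped between the groups. Silencing of this RNA cluster is a known fault of some stem cell lines, and here Meg3 had at least 1141 CPM in every library. Dlk1, the paternally expressed coding gene of the locus, had 1 and 5 counts in Usp28 KO libraries, against 8 and 3 in control libraries.

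At the Igf2r locus on chromosome 17, Igf2r encodes the receptor that clears IGF2 and Airn is the noncoding RNA that silences it on the paternal copy. Igf2r had 160 and 156 CPM in Usp28 KO libraries, against 127 and 128 CPM in control libraries. Replicates lay within a few CPM and the groups were apart (0.31 ± 0.15, edgeR adjusted p = 0.484, DESeq2 adjusted p = 0.676). Airn had 2 and 1 counts in Usp28 KO libraries, against 2 and 2 in control libraries.

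At the Peg3 locus on proximal chromosome 7, the zinc finger gene Peg3 had 237 and 303 CPM in Usp28 KO libraries, against 187 and 274 CPM in control libraries, and the groups overlapped (0.23 ± 0.20). Usp29, a deubiquitinase gene of the same family as Usp28 that starts beside Peg3 on the other strand, had 10.2 and 14.3 CPM in Usp28 KO libraries, against 9.01 and 15.4 CPM in control libraries (0.0087 ± 0.29). Zim1, a maternally expressed zinc finger gene, had 4.71 and 4.48 CPM in Usp28 KO libraries, against 3.58 and 4.41 CPM in control libraries (0.20 ± 0.29).

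The other 9 members lay at 7 loci and none passed either test. Groups were apart in Nnat and Trappc9, both higher in Usp28 KO libraries, and in Grb10, which was lower. Log2 fold changes ran from -0.24 ± 0.31 for Grb10, an adaptor of growth factor receptors, to 0.42 ± 0.30 for Nnat, a neuronal membrane protein gene. Nnat was at 0.19 after GC correction. Of the genes read from introns of a host, Zrsr1 stood at -0.17 ± 0.19 and its host Commd1 at 0.21 ± 0.24, and Peg13 stood at -0.17 ± 0.27 and its host Trappc9 at 0.23 ± 0.17, with Trappc9 at 0.062 after GC correction. The log2 ratio of Peg13 to Trappc9 per length was -2.26 and -1.89 in Usp28 KO libraries, against -1.76 and -1.57 in control libraries. That of Zrsr1 to Commd1 overlapped between the groups. Mcts2, a retrogene inside H13, was at -0.070 ± 0.20, Inpp5f at -0.0093 ± 0.19 and Gnas, which encodes a G protein subunit and several imprinted transcripts, at 0.33 ± 0.24 (0.095 after GC correction).

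Genes within 250 kb of the members gave 100 tested neighbours that are not members, over 19 loci. Their groups did not overlap in 44 cases (44%, against 41.8% of all tested genes), and 14 (14%) lay beyond a fold change of 1.5, against 14.7% of all genes. DESeq2 called 0 of them, where it called 0.969% of all genes, and edgeR called 0. Around Plagl1, the neighbours Utrn, Ltv1, Phactr2 and Sf3b5 stood at -0.21 ± 0.17, -0.21 ± 0.17, -0.12 ± 0.24 and 0.18 ± 0.16. Around Zdbf2, the imprinted neighbour Adam23 had 288 ± 9.34 CPM in Usp28 KO libraries and 353 ± 33.1 CPM in control libraries (SD, n = 2 each; -0.30 ± 0.16, edgeR adjusted p = 0.540), and Ino80d, Ndufs1 and Eef1b2 stood at -0.32 ± 0.16, -0.046 ± 0.18 and 0.16 ± 0.19. Ino80d and Adam23 were both lower in every Usp28 KO library. Near Slc38a4, Amigo2 stood at 0.64 ± 0.44, Gm32885 at 0.38 ± 0.22 and Pced1b at -0.077 ± 0.17, and the first 2 of these were higher in every Usp28 KO library. The differences between a member and its neighbours were not tested.

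**Figure D4:**
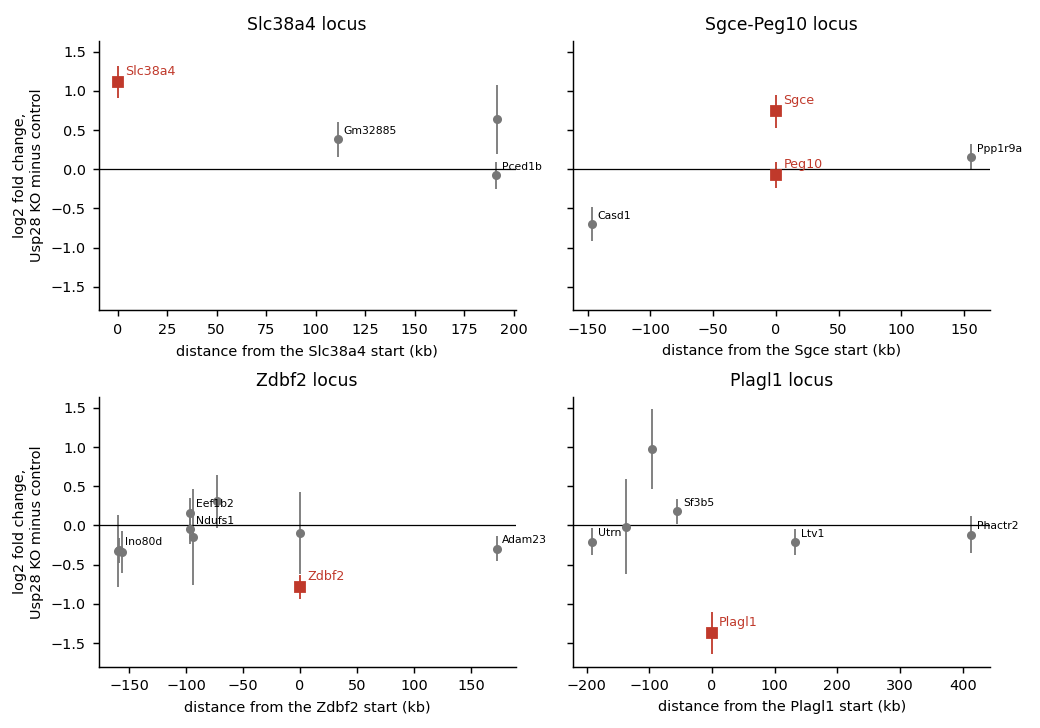
Log2 fold change (±1 SE, edgeR), Usp28 KO minus control, of members (squares) and tested neighbours within 250 kb (circles) by the distance of their starts from the named gene, in kb; neighbours averaging at least 10 CPM are named. Plagl1 at -1.37 lies below its neighbours drawn; Slc38a4 at 1.11 is the highest point of its locus, although its bar meets that of Amigo2, an unnamed point at 0.64. Sgce lies apart from Peg10 at nearly the same position.

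Of the genes that set or hold imprints, 35 were listed and 32 tested. edgeR called 0 of them (2, or 6.25%, at an unadjusted p under 0.05, against 11.2% of all genes) and DESeq2 called 1, Dppa3, against 0.969% of all genes. Dppa3 encodes a protein that protects methylation in the zygote. It had 15.7 ± 2.41 CPM in Usp28 KO libraries and 5.03 ± 1.90 CPM in control libraries (SD, n = 2 each; DESeq2 adjusted p = 0.000703, edgeR adjusted p = 0.0611). The median of the list was -0.14, against -0.0040 for all genes, with 25 of 32 below 0 (78.1%, against 50.6% of all genes). After GC correction the list's median was -0.11, against -0.038 for all genes. The imprint-binding Zfp57 had 442 ± 41.3 CPM in Usp28 KO libraries and 532 ± 80.5 CPM in control libraries (-0.27 ± 0.18), and its partner Trim28 stood at -0.17 ± 0.17 (-0.31 after GC correction). Zfp445, which acts with Zfp57, stood at -0.13 ± 0.17. The maintenance methyltransferase gene Dnmt1 stood at -0.0094 ± 0.17 and its cofactor Uhrf1 at -0.060 ± 0.16. Dnmt3a, Dnmt3b and Dnmt3l, which set methylation, stood at 0.30 ± 0.20, -0.15 ± 0.18 and 0.060 ± 0.19. The demethylation enzymes Tet1 and Tet2 stood at -0.25 ± 0.18 and -0.35 ± 0.21, and the insulator factor gene Ctcf, which separates H19 from Igf2, at -0.18 ± 0.16. Atf7ip, Hells and Eed, with the smallest p after Dppa3, stood at -0.50 ± 0.20, -0.34 ± 0.18 and -0.28 ± 0.15, and none passed; Hells was at -0.13 after GC correction.

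**Figure D5:**
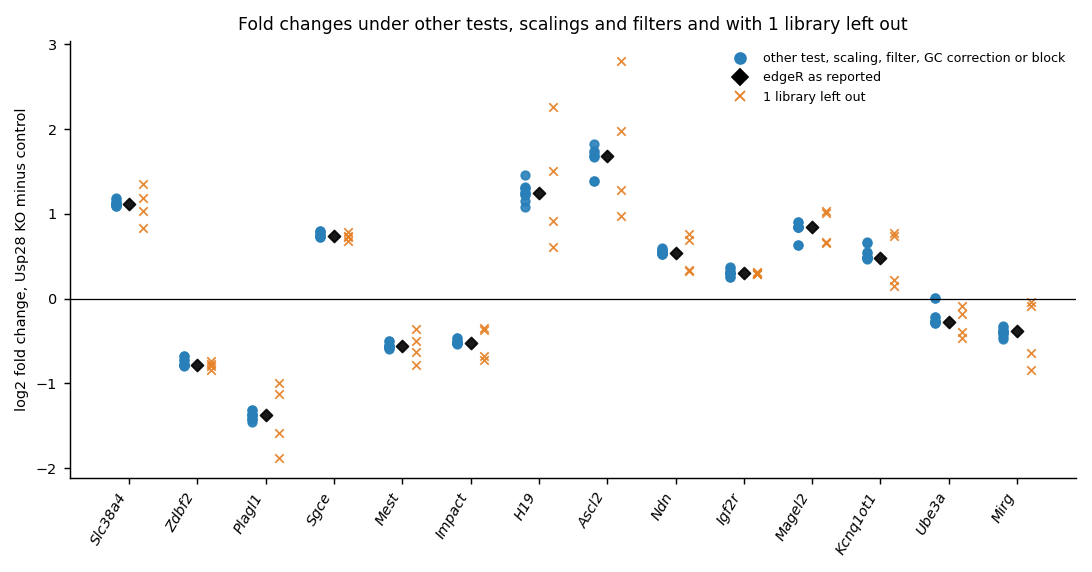
Log2 fold change, Usp28 KO minus control, of the 14 members with the smallest p in the edgeR fit: circles are other tests, scalings, filters, GC correction and the replicate block, diamonds the reported fit, crosses fits with 1 library left out. Zdbf2 and Sgce keep narrow ranges (-0.84 to -0.68 and 0.68 to 0.80), while H19 spans 0.61 to 2.26 and Ascl2 0.97 to 2.81.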

How the data were processed

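The authors deposited unnormalized counts of reads for every gene in 4 libraries, beside exon positions and exonic lengths. The submitters' processing notes list HISAT2, featureCounts, DESeq2 and mm10 with no version. The strand setting, the handling of multi-mapped reads and the annotation version were not given in the sources used here. Symbols came from a table of mouse gene names, matched by identifier without version (55141 matched, 260 did not), and coordinates are those of the deposited table.

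In R 4.3.3, edgeR 4.0.16 kept 15341 genes by filterByExpr (minimum count 10, total 15), scaled by TMM and ran a robust quasi-likelihood test of Usp28 KO against control, with Benjamini-Hochberg adjustment over all tested genes and a threshold of 0.05. The SE is the absolute log2 fold change over the square root of the F statistic. DESeq2 1.42.0 and limma-voom (limma 3.58.1) were alternatives, beside 3 other scalings, 2 other filters, GC correction, a replicate block (alone and with GC correction) and each library left out, 14 in all. The steps were tested on simulated counts. GC correction removed each library's spline trend (a natural spline with 5 df) of log CPM against the GC content of the genes' GENCODE M21 transcripts. RPKM is CPM per kilobase of exonic length.

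Members, lists and rules were chosen with earlier results of these data known. Every member is accounted for. Values per library are given for the 14 with the smallest p, those of at least 50 CPM and their locus neighbours; of the regulator and other imprinted lists, 12 fixed genes and the 4 with the smallest p in each are named.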

Additional observations from a re-analysis of the deposited data

How the results depend on the processing

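Over all genes, edgeR's 0 calls became 130 with DESeq2, 29 with library totals, 21 with upper-quartile scaling, 322 without a filter and 142 to 346 with a library left out. For the members, 0 became 3 with DESeq2 (Slc38a4, Plagl1 and Zdbf2), 1 each with library totals and upper-quartile scaling (Slc38a4), 4 without a filter (these 3 and H19) and 3 to 5 with a library left out. For the imprint regulators, 0 became 1 in each of these settings and 1 to 2 with a library left out, and for the other imprinted genes 0 became 1 without a filter and 0 to 1 with a library left out. limma-voom, DESeq2 size factors, the 50-count filter and GC correction left each of these counts at 0. Slc38a4, Plagl1 and Zdbf2 each had an adjusted p of 0.285 after GC correction.

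The labels do not say that same-numbered libraries share a batch; their deviations from the group means correlated at 0.52 over 10704 genes. With a replicate block edgeR called 1681 of all 15341 tested genes, 11 of 32 members, 3 of 32 regulators and 6 of 33 other imprinted genes. With the block and GC correction it called 2396, 12, 7 and 13 of the same numbers.

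The members' median ran from -0.018 to 0.14 with a library left out. Slc38a4, Plagl1 and Zdbf2 kept their sign in all 14 alternatives, and of the members whose sign turned only Peg3 was called in any setting (0.24 with the block and GC correction, adjusted p = 0.0423). Signs turned after GC correction in Ube3a (0.0054, with the block 0.0062), Cd81 (-0.043, with the block -0.045) and Inpp5f (0.017, with the block 0.016). Inpp5f was at 0.052 with library totals, 0.048 with upper-quartile scaling and 0.0050 with the 50-count filter, and Meg3 at 0.016 and 0.012 with the 2 scalings. With a library left out, signs turned within -0.21 to 0.069 for Mcts2, -0.018 to 0.60 for Gnas, -0.24 to 0.064 for Peg10, -0.020 to 0.52 for Peg3, -0.34 to 0.43 for Usp29, -0.35 to 0.12 for Snrpn, -0.040 to 0.015 for Inpp5f, -0.088 to 0.11 for Cd81, -0.064 to 0.53 for Commd1 and -0.27 to 0.14 for Meg3. The cause was not tested. Members under about 1 CPM rest on few reads; of these Ascl2 was called once, with the block (adjusted p = 0.0387).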

Other observations

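A further 57 genes described as imprinted in the mouse, which are not among the 37, were read the same way, and 33 passed the filter. edgeR called 0 of these (8, or 24.2%, at an unadjusted p under 0.05, against 11.2% of all tested genes) and DESeq2 0 of 30, where it called 0.969% of all genes. Their median log2 fold change was -0.021, against -0.0040 for all tested genes, and 21 (63.6%) had groups that did not overlap, against 41.8% of all genes, 12 higher (36.4%, against 21.4%) and 9 lower (27.3%, against 20.4%). Of these 21, Gatm and Osbpl5 passed the filter through their Usp28 KO libraries only, which fixed their sign. Dio3 passed with both control libraries and 1 Usp28 KO library at the minimum. Without Gatm, Osbpl5 and Dio3, 10 were higher and 8 lower without overlap. Of the 30 then left, edgeR counted 5 higher and 2 lower at an unadjusted p under 0.05. The 4 with the smallest p were Casd1, Peg12, Smoc1 and Gatm. Peg12, a paternally expressed gene of the Snrpn domain, had 3.48 ± 2.20 CPM in Usp28 KO libraries and 1.25 ± 0.336 CPM in control libraries (SD, n = 2 each; 1.46 ± 0.48, edgeR adjusted p = 0.281). It rests on 94 and 36 counts in Usp28 KO libraries, against 29 and 16 in control libraries, ran from 0.61 to 1.99 with a library left out and was 1.29 after GC correction. Mkrn3, of the same domain, overlapped at 12.1 and 6.93 CPM in Usp28 KO libraries, against 8.70 and 6.56 CPM in control libraries (0.32 ± 0.30), and Snhg14 stood at -0.15 ± 0.32. Smoc1, a matricellular protein gene, had 18.4 ± 0.113 CPM in Usp28 KO libraries and 12.6 ± 0.821 CPM in control libraries (0.54 ± 0.21, edgeR adjusted p = 0.350). Gatm, which encodes an enzyme of creatine synthesis, stood at 1.23 ± 0.52 on a mean of 1.20 CPM in Usp28 KO libraries and 0.508 CPM in control libraries, with the sign fixed by the filter.

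Slc38a4 shares with Sfmbt2, Jade1, Gab1 and Smoc1 that maternal silencing in the early mouse embryo is known to depend on methylation of histone H3 at lysine 27. Sfmbt2 had 55.9 ± 10.2 CPM in Usp28 KO libraries and 40.7 ± 10.3 CPM in control libraries (0.46 ± 0.21, edgeR adjusted p = 0.442), and Jade1 had 305 ± 0.257 CPM in Usp28 KO libraries and 396 ± 30.1 CPM in control libraries (-0.38 ± 0.16, edgeR adjusted p = 0.404). Gab1 had 442 ± 94.2 CPM in Usp28 KO libraries and 482 ± 111 CPM in control libraries (-0.12 ± 0.21, edgeR adjusted p = 0.879). These 3 were named after their values were seen, and none passed the test.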
